A study of Mus musculus with 6 samples.

Results

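Transcript levels of 10 mouse genes that drive mitosis or hold its checkpoint were followed through PRMT5 inhibition: Aurka, Aurkb, Plk1, Plk4, Bub1, Bub1b, Ttk, Cdk1, Cdc25b and Mad2l1. They were chosen by name, with earlier results of these data known, and each of the 10 had a row among the 11644 genes of the expression table. The cells were cultured mouse MLL-ENL/NrasG12D leukemia cells, in which a fusion of the MLL methyltransferase with ENL is combined with a mutant Nras, so that both groups share the fusion and the mutation. Cells of the 3 treated replicates, here the inhibitor libraries, received EPZ 015666, an inhibitor of the arginine methyltransferase PRMT5, at 5 µM for 72 h with a second addition on day 2, and those of the 3 control libraries received DMSO, the solvent. The submitters call the replicates independent without saying whether they were separate cultures, so the p-values measure the spread between these libraries, which may be technical. Values written as mean ± SD are over the 3 libraries of a group.

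Entry into mitosis is driven by Cdk1 bound to cyclin B. The phosphatases of the CDC25 family switch it on, the kinase WEE1 holds it off, and the kinases AURKA and PLK1 help to start the process. Once chromosomes are condensed, AURKB corrects faulty attachments to the spindle, and TTK, BUB1, BUB1B (also called BubR1) and MAD2L1 form the spindle checkpoint, which keeps the anaphase-promoting complex and its activator CDC20 off until every chromosome is attached. PLK4 stands apart as the kinase that starts centriole duplication. Most of these genes are transcribed in a burst late in the cell cycle from promoters with CCAAT boxes, bound by the factor NF-Y, and a cell cycle genes homology region (CHR), bound by the MuvB core that DREAM, MYBL2 and FOXM1 complexes share.

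With the inhibitor, 7 of the 10 genes fell (Cdc25b, Bub1b, Plk1, Ttk, Plk4, Aurkb and Cdk1) and none rose. Here a gene is said to fall or rise where its adjusted p was under 0.05 by limma over all 11644 genes. Over all genes 22.9% fell and 23.6% rose, and the median log2 fold change was 0.00, against -0.35 over the 10 genes. Because of how the genes were chosen, their count is a description and no independent evidence. The 3 that did not pass were Aurka, Bub1 and Mad2l1. Sizes differed widely within the set: Cdc25b lost 51.7% and Bub1b 45.3% of the DMSO mean, while the other 5 lost between 17.3% and 25.7%. In all 7 the highest inhibitor library lay below the lowest DMSO library, a pattern that 27.9% of all genes showed in that direction. None of the 10 lay wholly above its DMSO libraries, as 28.2% of all genes did, and 46.5% of all genes changed in either direction. The same 7 genes fell by edgeR on recovered reads (24.2% of all genes fell), DESeq2 (21.0%), limma-voom (24.1%), limma on CPM with TMM factors (24.4%), upper-quartile factors (23.1%), a pseudocount of 0.5 (22.8%) or 5 (22.9%) and a minimum mean of 100 (26.1% of 9100 genes). They also fell with a replicate block (25.0%), by edgeR with that block (26.5%), without DMSO library 2 (22.3%) and without inhibitor library 1 (22.3%). Aurkb and Cdk1 no longer passed without DMSO library 1 (19.2% of all genes fell), Aurkb without DMSO library 3 (18.5%), Plk1 and Aurkb without inhibitor library 2 (17.8%) and Cdk1 without inhibitor library 3 (20.7%). In a bulk sample fewer cells near mitosis and less transcript per cell cannot be told apart.

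**Figure D1:**
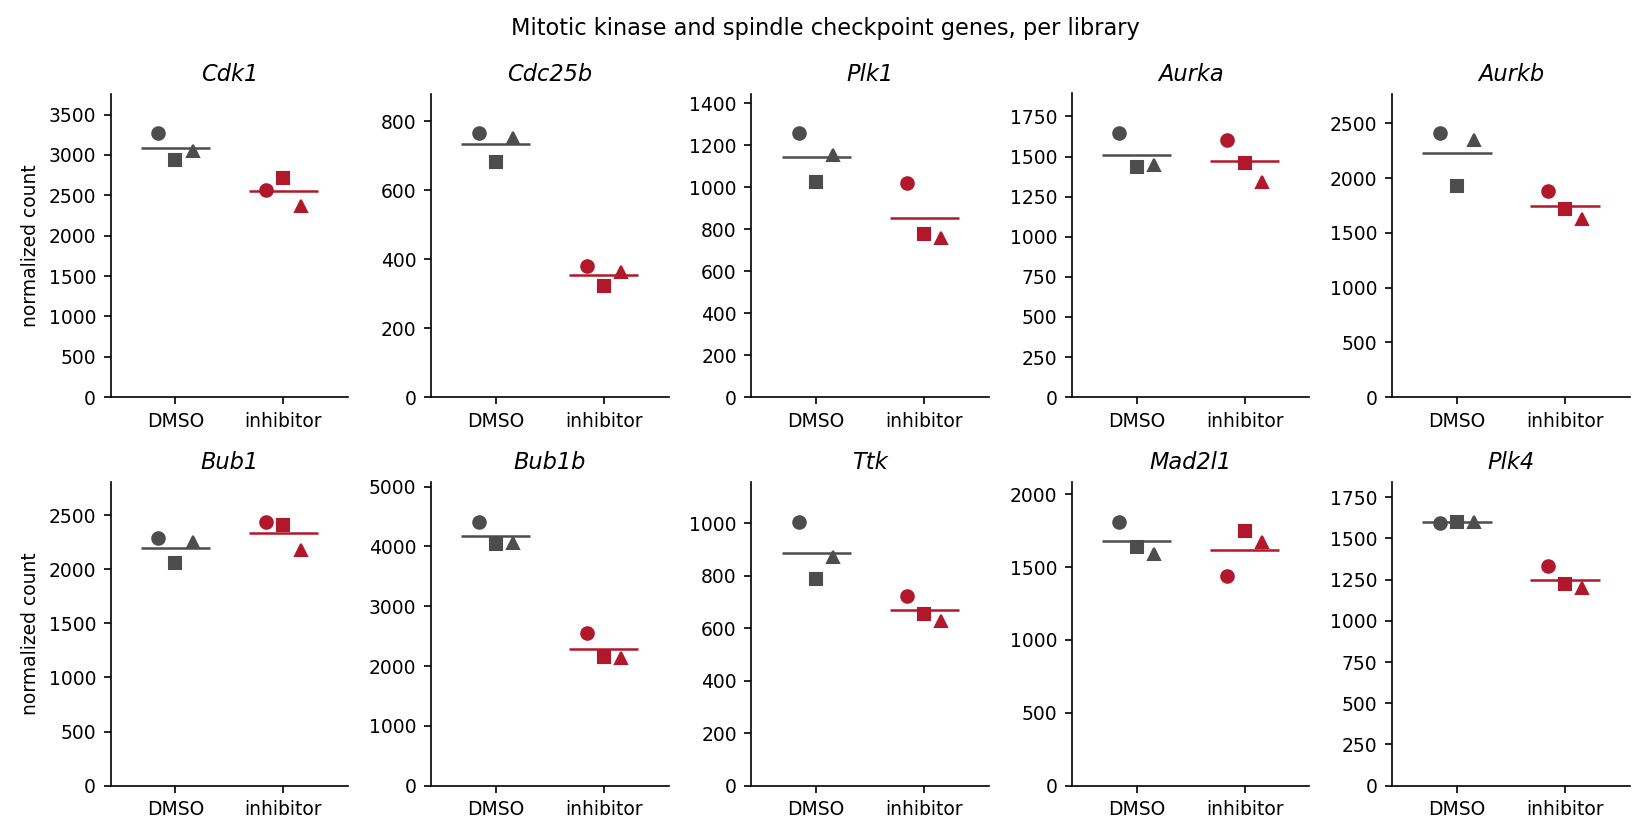
Normalized counts (vertical axis, from 0) of the 10 genes in the 3 DMSO and 3 inhibitor libraries; circles, squares and triangles are libraries 1, 2 and 3, and bars are group means. The groups are apart for 7 genes and overlap for Aurka, Bub1 and Mad2l1.

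Several promoters of genes that fell and of genes that did not pass shared the same elements, in differing layouts. RefSeq promoter windows (GRCm38.p6, which is mm10), from 250 bases before to 50 after the start, were matched for 9 of the 10 genes, all but Aurkb. Windows were searched on both strands for the CHR letters TTTGAA or TTCGAA, for CCAAT, and for TTTNNCGC, an E2F-type sequence. A CHR match and a CCAAT match both occurred in 7 of the 9 windows (77.8%), against 5.9% of the windows of 8808 genes in the table and 7.7% of 27025 windows in all. The genes were chosen by name as mitotic genes, a kind already described with such promoters. The share is therefore a description and no independent evidence. The CHR letters alone were in 13.8% and CCAAT in 39.4% of the windows of genes in the table. The genes that fell and those that did not pass are printed together because both kinds carry the same pair of elements. Each run covers the bases from -200 to +30 around the start, 5′ to 3′ on the gene's strand, with the matches that lie in it in capitals.
Cdc25b: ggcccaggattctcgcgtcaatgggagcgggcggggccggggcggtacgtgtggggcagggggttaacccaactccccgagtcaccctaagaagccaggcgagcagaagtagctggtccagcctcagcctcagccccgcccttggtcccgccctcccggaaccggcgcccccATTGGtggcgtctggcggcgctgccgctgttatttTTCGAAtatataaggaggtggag
Bub1b: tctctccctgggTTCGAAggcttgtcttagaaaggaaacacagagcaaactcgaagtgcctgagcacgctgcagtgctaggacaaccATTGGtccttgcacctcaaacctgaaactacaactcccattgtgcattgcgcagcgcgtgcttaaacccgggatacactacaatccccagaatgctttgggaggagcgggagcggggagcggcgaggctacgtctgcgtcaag
Ttk: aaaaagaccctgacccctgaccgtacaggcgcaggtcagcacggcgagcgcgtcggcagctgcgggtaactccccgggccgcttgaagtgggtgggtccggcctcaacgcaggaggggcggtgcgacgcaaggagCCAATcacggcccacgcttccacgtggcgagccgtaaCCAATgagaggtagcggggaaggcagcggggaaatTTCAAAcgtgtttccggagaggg
Cdk1: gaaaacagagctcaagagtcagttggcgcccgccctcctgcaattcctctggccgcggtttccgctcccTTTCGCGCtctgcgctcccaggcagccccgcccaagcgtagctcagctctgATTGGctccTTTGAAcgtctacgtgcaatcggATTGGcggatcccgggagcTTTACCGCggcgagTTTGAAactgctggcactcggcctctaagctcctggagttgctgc
Bub1: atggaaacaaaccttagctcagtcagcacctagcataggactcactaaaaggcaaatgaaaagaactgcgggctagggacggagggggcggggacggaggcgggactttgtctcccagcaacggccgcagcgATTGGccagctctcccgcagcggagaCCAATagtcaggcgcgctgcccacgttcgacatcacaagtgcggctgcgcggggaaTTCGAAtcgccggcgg
These windows are chr2:131186748-131186977 (plus strand) for Cdc25b, chr2:118598011-118598240 (plus strand) for Bub1b, chr9:83834489-83834718 (plus strand) for Ttk, chr10:69352883-69353112 (minus strand) for Cdk1 and chr2:127831830-127832059 (minus strand) for Bub1.

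Cdc25b, whose transcript fell most, had 1 CCAAT box, read on the reverse strand from -28 to -24, and the CHR letters from 8 to 13 bases after the start. Bub1, which did not pass, had the same CHR letters at 15 to 20 and CCAAT boxes beginning at -68 and -42. Its relative Bub1b differed in layout, with CHR letters at -188 to -183 and 41 to 46, the latter past the printed run, and a single CCAAT box beginning at -113. Cdk1 had the richest window, with 3 CCAAT boxes (1 of them upstream of the printed run), 2 CHR matches and 2 E2F-type matches, and was the only one of the 9 with an E2F-type match (8.9% of genes in the table had one). Aurka, which did not pass, had CCAAT boxes 32 bases apart, the same spacing as the boxes of Cdk1 that begin at -80 and -48, and CHR letters at 33 to 38. Plk1 had CHR letters at 31 to 36 and Ttk at 8 to 13, the latter on the reverse strand. Plk4, which fell, and Mad2l1, which did not pass, had none of the 3 motifs in the windows searched. For both genes the window follows the RefSeq start and ends before the gene start in GENCODE. The bases to +30 end at 40799980 for Plk4 (gene start 40800019) and at 66535250 for Mad2l1 (gene start 66535390). Bases at the GENCODE starts of these 2 genes were therefore not searched. Of the 7 genes with both elements 5 fell and 2 did not pass. Of the 2 without either in the window 1 fell and 1 did not. Aurkb, which fell, is not in this tally. A match describes letters in a window and not a bound factor.

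**Figure D2:**
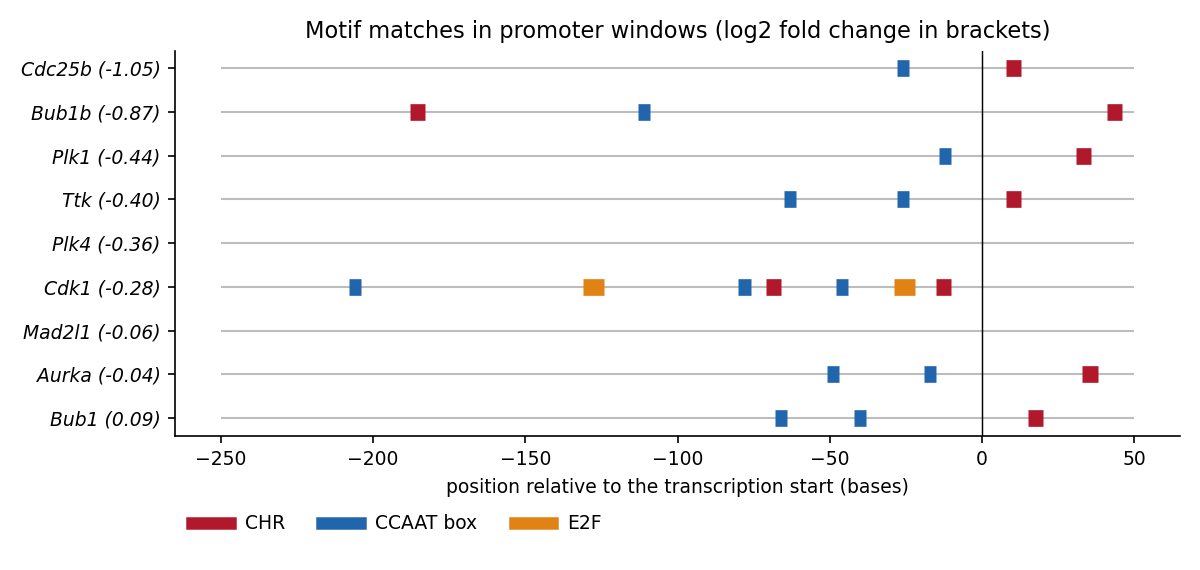
Positions of motif matches in the promoter windows of 9 genes, in bases from the transcription start (horizontal axis), ordered by log2 fold change (in brackets). CHR and CCAAT matches are present in genes that fell, such as Cdc25b (-1.05), and in Aurka (-0.04) and Bub1 (0.09).

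Among the genes of mitotic entry, Cdc25b (chromosome 2, 131186949 to 131198497, plus strand, mm10) encodes a phosphatase that removes the inhibitory phosphates from Cdk1. It stood at 766, 682 and 752 normalized counts in DMSO libraries 1 to 3 and at 379, 323 and 362 in the inhibitor libraries. All 3 inhibitor libraries were far below the DMSO range, and the log2 fold change was -1.05 ± 0.10 (SE; limma adjusted p = 8.38e-06). Only 3.01% of all genes had a lower log2 fold change. Of the 10 genes it had the fewest reads, down to 231 in inhibitor library 2. Its exons overlap 92 bases of Spef1 on the opposite strand, and the strand setting of the counting is not given in the sources used here.

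Neither other member of the CDC25 family passed the test. Cdc25a, which acts from G1 onward, had 1758 ± 187 normalized counts with DMSO against 1656 ± 172 in treated cells (limma adjusted p = 0.517), and Cdc25c had 326 ± 17.1 and 371 ± 13.9, with every treated value above the DMSO range (limma adjusted p = 0.136). WEE1 and PKMYT1, the kinases that oppose CDC25 phosphatases, fell at the transcript level. Wee1 went from 1062 ± 71.6 to 739 ± 57.0 (limma adjusted p = 6.89e-04) and Pkmyt1 from a mean of 711 (622 to 825) to 438 (366 to 546; limma adjusted p = 0.00217). Between the groups Cdc25b fell further than Wee1. The log2 ratio of the pair within a library was -0.55, -0.53 and -0.52 in DMSO and -1.07, -1.18 and -0.92 with the inhibitor. The groups did not overlap, and the difference of -0.52 had the smallest p that 3 against 3 libraries allow (two-sided exact permutation p = 0.10, adjusted over 6 pairs 0.15).

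Cdk1 (chromosome 10, 69335146 to 69352938, minus strand), the kinase at the centre of mitotic entry, fell by the least of the 7. Its DMSO libraries held 3271, 2938 and 3051 normalized counts and its inhibitor libraries 2561, 2720 and 2374. The highest inhibitor value stayed below the lowest DMSO value by a small margin, and the log2 fold change was -0.28 ± 0.08 (SE; limma adjusted p = 0.0183). It did not pass once DMSO library 1 (limma adjusted p = 0.0809) or inhibitor library 3 (0.0528) was left out. Ccnb1, its cyclin B1 partner, fell from 3687 ± 274 to 3120 ± 200 (log2 fold change -0.24, limma adjusted p = 0.0409). The log2 ratio of Cdk1 to Ccnb1 was -0.26 ± 0.05 in DMSO and -0.29 ± 0.09 with the inhibitor, a difference within the spread (two-sided exact permutation p = 0.60). Ccnb1 lost its call without any 1 of DMSO library 1 or 3 or inhibitor library 2 or 3 (limma adjusted p 0.107 to 0.154).

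Plk1 (chromosome 7, 122159439 to 122169873, plus strand) encodes a polo kinase that acts from mitotic entry to cytokinesis. It had 1258, 1027 and 1155 normalized counts in the DMSO libraries and 1018, 779 and 757 with the inhibitor. Inhibitor library 1 almost reached DMSO library 2, and the log2 fold change was -0.44 ± 0.12 (SE; limma adjusted p = 0.0108). Without inhibitor library 2 the call was lost (limma adjusted p = 0.0599). The exons of Plk1 share 156 bases with Gm44985 on the opposite strand.

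Aurka (chromosome 2, 172356190 to 172370535, minus strand), the aurora kinase of centrosomes and spindle poles, had 1646, 1435 and 1446 normalized counts in the DMSO libraries and 1605, 1460 and 1343 with the inhibitor. The libraries of both groups were interleaved. Its log2 fold change was -0.04 with a 95% interval from -0.24 to 0.16 (limma adjusted p = 0.747), so a fall as large as that of Bub1b lies outside the interval, while one of up to 0.24 does not. Among cofactors of AURKA, Tpx2, which activates it on the spindle, had 3199 ± 238 and 2769 ± 373 (limma adjusted p = 0.112). Bora, which lets AURKA activate PLK1, fell from 842 ± 39.3 to 598 ± 22.7 (limma adjusted p = 6.15e-04).

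Aurkb (chromosome 11, 69045647 to 69051664, plus strand), the catalytic subunit of the chromosomal passenger complex, fell where its relative Aurka did not pass. DMSO libraries held 2411, 1926 and 2351 normalized counts and inhibitor libraries 1884, 1719 and 1624. DMSO library 2 lay low and close to inhibitor library 1, and the log2 fold change was -0.35 ± 0.10 (SE; limma adjusted p = 0.0132). It did not pass once DMSO library 1 (limma adjusted p = 0.0588), DMSO library 3 (0.0546) or inhibitor library 2 (0.0535) was left out. Within libraries the ratio of Aurkb to Aurka went from 1.48 ± 0.14 to 1.19 ± 0.02, with no overlap. On the log2 scale that is a difference of -0.31 (two-sided exact permutation p = 0.10, the smallest possible, and 0.15 adjusted over 6 pairs). Of the other passenger subunits, Incenp fell from 2976 ± 236 to 2240 ± 113 (limma adjusted p = 0.00228) and Cdca8 from 1205 ± 73.6 to 1020 ± 66.4 (limma adjusted p = 0.0373). Birc5 had 1400 ± 152 and 1344 ± 39.2 (limma adjusted p = 0.663).

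Among the 4 checkpoint genes 2 fell (50%, against 22.9% of all genes), none rose (23.6% of all genes did) and 2 did not pass. In either direction 46.5% of all genes changed. Bub1b (chromosome 2, 118598211 to 118641591, plus strand) encodes BubR1, which joins BUB3, MAD2L1 and CDC20 in the complex that blocks the anaphase-promoting complex. It had 4415, 4033 and 4052 normalized counts in the DMSO libraries and 2550, 2158 and 2128 with the inhibitor. No inhibitor library came near the DMSO range, and the log2 fold change was -0.87 ± 0.09 (SE; limma adjusted p = 1.82e-05), with 4.84% of all genes lower.

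Bub1 (chromosome 2, 127801122 to 127831865, minus strand), the related kinase that recruits checkpoint proteins to kinetochores, had 2285, 2054 and 2253 in DMSO and 2439, 2404 and 2173 with the inhibitor. Its highest values were inhibitor libraries, the groups overlapped, and the log2 fold change was 0.09 with a 95% interval from -0.09 to 0.27 (limma adjusted p = 0.399). The log2 ratio of Bub1b to Bub1 was 0.95, 0.97 and 0.85 in DMSO libraries and 0.06, -0.16 and -0.03 in inhibitor libraries, or 1.90 ± 0.09 counts of Bub1b for each of Bub1 against 0.97 ± 0.07. The log2 difference of -0.96 was the largest of the 6 ratios compared and again at the smallest p possible (two-sided exact permutation p = 0.10, adjusted over 6 pairs 0.15).

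**Figure D3:**
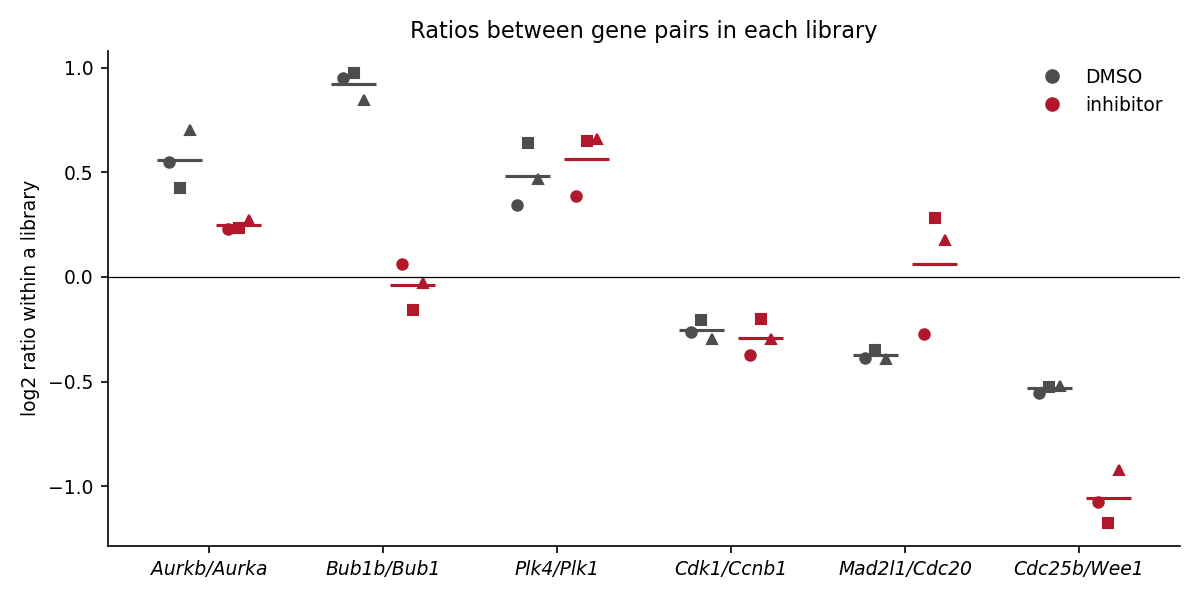
Log2 ratio of normalized counts between 6 gene pairs within each library (vertical axis), DMSO in grey and inhibitor in red; circles, squares and triangles are libraries 1, 2 and 3, and bars are means. Bub1b to Bub1 went from 0.92 to -0.04, while Plk4 to Plk1 and Cdk1 to Ccnb1 overlapped between groups.

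Ttk (chromosome 9, 83834689 to 83872389, plus strand), the MPS1 kinase that starts checkpoint signalling at kinetochores, had 1006, 786 and 871 normalized counts in the DMSO libraries and 723, 656 and 626 with the inhibitor. DMSO library 1 was the highest and all inhibitor libraries lay below DMSO library 2 (log2 fold change -0.40 ± 0.10 SE, limma adjusted p = 0.00789). Mad2l1 (chromosome 6, 66535390 to 66547220, plus strand), which captures CDC20, had 1812, 1638 and 1588 in DMSO and 1436, 1747 and 1670 with the inhibitor. Inhibitor library 1 was the lowest of all and the other two lay within the DMSO range, with a log2 fold change of -0.06 and a 95% interval from -0.26 to 0.15 (limma adjusted p = 0.644). Cdc20, the target of MAD2L1, fell from 2178 ± 165 to 1552 ± 162 (limma adjusted p = 0.00132). The ratio of Mad2l1 to Cdc20 was 0.77, 0.79 and 0.76 in DMSO and 0.83, 1.21 and 1.13 with the inhibitor. Inhibitor library 1 was close to DMSO, and the log2 difference of 0.43 had a two-sided exact permutation p = 0.10, adjusted over 6 pairs 0.15.

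Plk4 (chromosome 3, 40800019 to 40816883, plus strand), the centriole kinase, had the closest DMSO values of the 10 genes, at 1596, 1602 and 1598 normalized counts. They lay closer than random sampling of its 1628 to 1985 reads would usually bring them, so the closeness is not a trait of the gene. With the inhibitor it had 1331, 1222 and 1197, all below the DMSO values (log2 fold change -0.36 ± 0.08 SE, limma adjusted p = 0.00285). Its ratio to Plk1 overlapped between groups (log2 difference 0.08, two-sided exact permutation p = 0.50). Of the polo genes outside the 10, Plk2 and Plk3 rose. Plk2, a stress-induced relative, stood 14.6-fold higher in treated cells, up from 28.4 ± 7.16 to 414 ± 35.3 (limma adjusted p = 5.49e-08), and had as few as 26 reads in a DMSO library. Plk3 rose from 121 ± 15.6 to 213 ± 27.6 (limma adjusted p = 9.92e-04). Both are known to respond to p53. Cdkn1a, the p53-induced inhibitor of cyclin-dependent kinases, stood at 508, 773 and 549 in DMSO and 3230, 2904 and 2861 with the inhibitor (limma adjusted p = 2.30e-07). Whether p53 had a part in these rises was not tested.

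**Figure D4:**
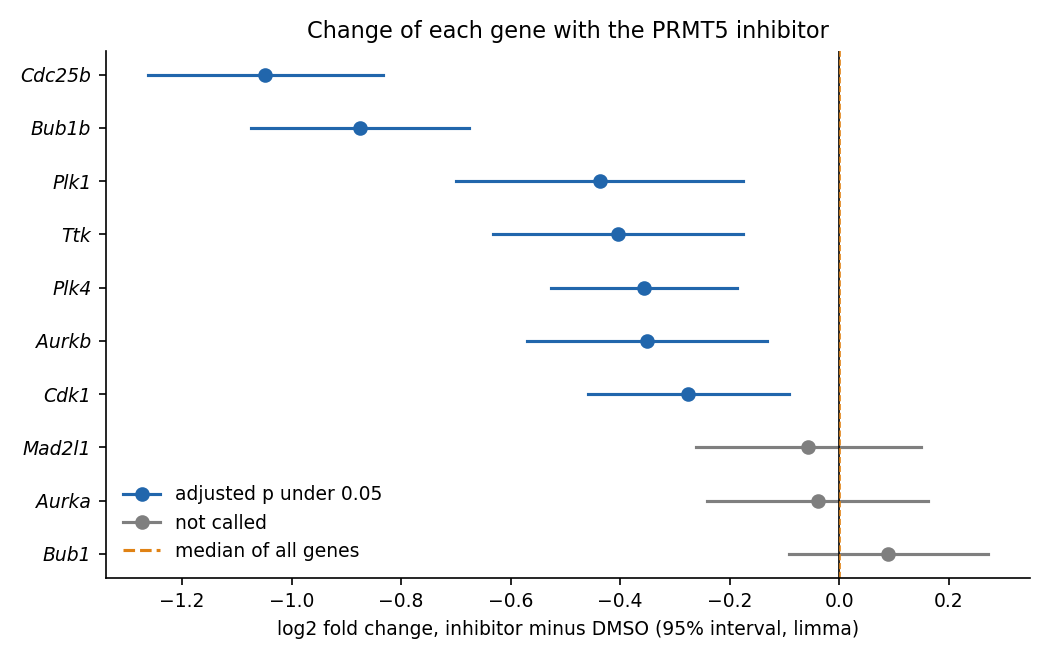
Log2 fold change (inhibitor minus DMSO) of the 10 genes with 95% limma intervals; blue marks adjusted p under 0.05, grey genes did not pass, and the dashed line is the median of all genes. Cdc25b (-1.05) and Bub1b (-0.87) stand to the left of the other 8.

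Genes were ranked by level only per length, as normalized counts per kb of the longest principal transcript in GENCODE release 21. The pair ratios given above carry no length correction, so they compare groups and not the levels of the genes in a pair. In DMSO Aurkb (1143 ± 136 per kb) and Bub1b (1136 ± 58.7) were highest, and their libraries overlapped. Aurka (792 ± 62.3), Cdk1 (706 ± 38.7), Bub1 (642 ± 36.6), Plk1 (521 ± 52.7) and Plk4 (460 ± 0.88) followed, with no overlap between neighbours, though Cdk1 (from 671) and Bub1 (up to 668) nearly met. Ttk (309 ± 38.6) came next, and Cdc25b (237 ± 14.5) and Mad2l1 (222 ± 15.6) were lowest and overlapped. With the inhibitor Bub1b stood at 621 ± 64.2 per kb and overlapped with Bub1 (684 ± 42.3) and Cdk1 (583 ± 39.6), and Cdc25b (115 ± 9.27) became the lowest. Transcript length sets part of this order: the Mad2l1 transcript used is 7557 bases long and that of Aurka 1905, and with the union of all exons as length Ttk was lowest in DMSO (180 per kb) and Bub1b highest (975 per kb).

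The libraries of a group differed alike for most of the 10 genes. DMSO library 1 had the highest DMSO value for 9 of them and DMSO library 2 the lowest for 8. Inhibitor library 1 was the highest of its group for 8 genes and inhibitor library 3 the lowest for 8. The median offset of a library from the other two of its group ran from -0.14 to 0.16 on the log2 scale. Summed over the 10 genes, normalized counts were 20466, 18121 and 19118 in DMSO and 15926, 15186 and 14253 with the inhibitor, or 78.6% of the DMSO mean.

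Among 104 other genes of mitotic control, 103 had a row in the table. Of these 42 fell (40.8%, against 22.9% of all genes), 10 rose (9.7%, against 23.6%) and 51 did not pass, with a median log2 fold change of -0.18. The lists were drawn up with earlier results of these data known, so their counts describe the pathway and are no independent evidence.

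In the list of other entry genes, 8 of 14 fell (57.1%, against 22.9% of all genes) and none rose (23.6% of all genes did). With upper-quartile factors, with a replicate block or without inhibitor library 1, 1 of them rose. With Bora, the smallest adjusted p were those of Ccnb2, a second cyclin B (1966 ± 248 to 1323 ± 78.2, limma adjusted p = 6.76e-04), and Cks1b, a small subunit of cyclin-dependent kinases (1992 ± 116 to 1461 ± 13.7, limma adjusted p = 6.89e-04). Of 10 aurora cofactors 5 fell (50%, against 22.9% of all genes) and 1 rose (10%, against 23.6%). Rcc2, a chromatin-binding partner of the passenger complex, fell from 12369 ± 271 to 6692 ± 625 (limma adjusted p = 2.16e-05), and Gsg2, the haspin kinase that marks histone H3 to place AURKB at centromeres, from 718 ± 66.4 to 474 ± 59.0 (limma adjusted p = 9.99e-04). Aurkaip1 rose from 1064 ± 39.0 to 1480 ± 91.0 (limma adjusted p = 6.26e-04). It was listed as an AURKA-interacting protein and is also a component of the mitochondrial ribosome.

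Of 20 other checkpoint and outer kinetochore genes 10 fell (50%, against 22.9% of all genes) and 2 rose (10%, against 23.6%). Casc5, also called Knl1, is the scaffold on which BUB1 and BUB1B assemble, and it fell from 3346 ± 310 to 1795 ± 122 (log2 fold change -0.90, limma adjusted p = 1.50e-05). Spc24, of the NDC80 complex that grips microtubules, fell from 707 ± 16.1 to 460 ± 23.1 (limma adjusted p = 1.50e-04). Bub3, the partner of both BUB proteins, had 2934 ± 167 and 2870 ± 216 (limma adjusted p = 0.775). Zw10, which brings dynein to kinetochores, rose from 1744 ± 144 to 2589 ± 155 (limma adjusted p = 2.88e-04). The other that rose was Mad2l1bp, also called p31comet, which helps to take the checkpoint complex apart (166 ± 11.8 to 235 ± 14.4, limma adjusted p = 0.00519).

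In the list of the anaphase-promoting complex, on which the checkpoint acts, and its regulators, 7 of 21 genes fell (33.3%, against 22.9% of all genes), 3 rose (14.3%, against 23.6%) and 11 did not pass. Among the 14 subunits of the complex only Cdc16 and Anapc5 fell, and Anapc4, Anapc10 and Cdc26 rose. The other 5 that fell were Espl1 and the regulators Cdc20, Fzr1, Fbxo5 and Ube2c. Espl1, the separase that cuts cohesin at anaphase, fell from 1671 ± 180 to 843 ± 76.7 (limma adjusted p = 1.75e-05). The subunit Cdc16 fell from 1302 ± 57.3 to 872 ± 35.1 (limma adjusted p = 1.42e-04), while the subunit Anapc10 rose from 196 ± 3.93 to 382 ± 67.8 (limma adjusted p = 1.81e-04). Of 14 other mitotic and polo-family kinases 2 fell (14.3%) and 3 rose (21.4%), shares at or below those of all genes (22.9% and 23.6%). Only 1 fell by DESeq2 and without any 1 of DMSO library 1 or 2 or inhibitor library 2 or 3. Besides the rises of Plk2 and Plk3, Nek2, a centrosome kinase, fell from 1588 ± 91.2 to 1169 ± 139 (limma adjusted p = 0.00297).

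Of 10 partners of PLK4 3 fell (30%, near the 22.9% of all genes) and none rose (23.6% of all genes did). Stil, which binds PLK4 to start a new centriole, went from 856 ± 99.0 to 542 ± 12.6 (limma adjusted p = 2.41e-04) and Cep85 from 264 ± 20.2 to 198 ± 6.79 (limma adjusted p = 0.0112). Cenpj went from 490 ± 8.17 to 391 ± 46.1 (limma adjusted p = 0.0218), a call lost without any 1 of DMSO library 1 or 3 or inhibitor library 2 or 3.

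Of 14 genes listed as transcription factors of G2/M genes 7 fell (50%, against 22.9% of all genes) and 1 rose (7.1%, against 23.6%). Foxm1, an activator of G2/M genes, fell from 1043 ± 76.6 to 809 ± 82.5 (limma adjusted p = 0.00842) and Mybl2 from 1798 ± 146 to 1426 ± 93.7 (limma adjusted p = 0.00920), both losing the call without inhibitor library 2 (0.0502 and 0.0550). Nfya, the regulatory subunit of NF-Y, fell from 1744 ± 64.0 to 1258 ± 34.7 (limma adjusted p = 4.17e-04), and Lin54, the MuvB subunit that reads the CHR, from 1370 ± 59.2 to 1041 ± 12.6 (limma adjusted p = 0.00142). Mybl1 rose from 193 ± 35.7 to 313 ± 31.6 (limma adjusted p = 0.00196). Whether these factors set the levels of the 10 genes was not tested.

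**Figure D5:**
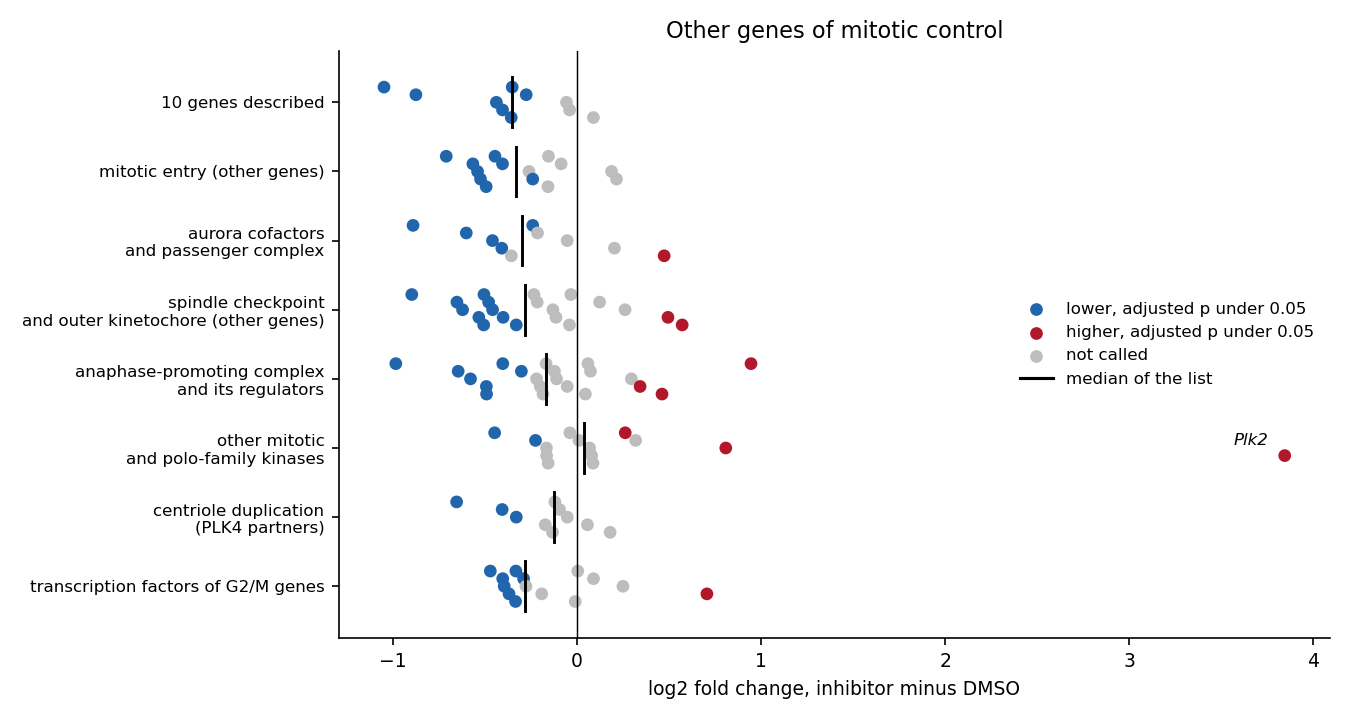
Log2 fold change (inhibitor minus DMSO, horizontal axis) of the 10 genes and of 103 other genes in 7 lists; blue fell, red rose, grey did not pass, and black bars are list medians. Most called genes lie below 0; Plk2 lies far to the right at 3.84.

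The 6 libraries held between 11335948 and 19197912 reads assigned to genes, and the 10 genes had 231 to 5415 reads each in a library. The second principal component of all genes (9.0% of the variance) set DMSO library 2 (-29.2) apart from DMSO libraries 1 and 3 (13.5 and 12.3), and without it the same 7 of the 10 genes fell. All 10 myeloid markers had a row, and 6 of them rose (23.6% of all genes did), 2 fell (Cebpa and Mpo; 22.9% of all genes did) and 2 did not pass, with summed normalized counts of 15550 to 16741 in DMSO and 23376 to 23871 with the inhibitor. Of 7 lymphoid markers only Cd79b had one, at 24.5 to 28.5 in DMSO and 12.3 to 22.6 with the inhibitor (limma adjusted p = 0.0634). Of 6 erythroid and megakaryocytic markers only Itga2b had one, and it rose from 6.79 ± 2.90 to 29.8 ± 10.3 (limma adjusted p = 0.00145). Of the stromal and endothelial list 3 of 6 had a row, nearly all of it Pecam1, which myeloid cells also express (2996 to 3977), and Pecam1 did not pass (limma adjusted p = 0.0571). Of the epithelial list 2 of 4 had a row, with sums of 53.0 to 80.7 in DMSO and 62.3 to 81.1 with the inhibitor; Epcam rose from 3.41 ± 1.26 to 11.9 ± 3.81 (limma adjusted p = 0.0153). Whether the changes of these markers have a part in the falls of mitotic genes was not tested.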

How the data were processed

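RNA-seq was run on poly-A RNA with a stranded kit, per the labels' protocols, in 3 libraries per group (groups from the titles). The build in the submitters' processing notes is mm10. They also list, without roles, DESeq 1.16.0, HTSeq 0.6.0, TopHat2 2.0.10 and CASAVA 1.8.2. The authors deposited a normalized signal: read counts per gene divided by a size factor per library. In every library 100% of values were whole multiples of 1 step (tolerance 1e-06), and whole reads were recovered, on which edgeR called 2819 genes lower and 2593 higher. Normalized counts + 1 were tested on the log2 scale with limma-trend (limma 3.58.1, R 4.3.3) over 11644 genes without a filter, and p-values (two-sided) were adjusted by Benjamini-Hochberg, with calls under 0.05. SE and intervals are limma's, and SDs are over 3 libraries. Log2 fold changes of low genes are understated by the pseudocount. Gene pairs were compared by exact permutation over libraries.

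Alternatives were edgeR 4.0.16, DESeq2 1.42.0, limma-voom, TMM and upper-quartile scaling, pseudocounts of 0.5 and 5, a minimum mean of 100, a replicate block and leaving out each library. Of these fits only limma and edgeR without a block were tested on simulated data. The 10 genes and the lists were chosen with earlier results of these data known. Named beside the 10 genes were Ccnb1, Cdc20, Foxm1, Mybl2, Wee1, Cdkn1a and, per list, up to 3 called genes with the smallest adjusted p; other genes (the CDC25, polo, passenger and BUB3 relatives, Pkmyt1, Tpx2, Mad2l1bp, Anapc4, Anapc5, Cdc26, Fzr1, Fbxo5 and Ube2c) were chosen after their values were seen. Coordinates and lengths are from GENCODE mouse release 21 (mm10), and promoters from RefSeq. No libraries of a group agreed within sampling noise (chi-square per degree of freedom 9.43 to 20.7).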

Additional observations from a re-analysis of the deposited data

How the results depend on the processing

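The 7 falls among the 10 genes were called by edgeR, DESeq2, limma-voom and limma under each other scaling, pseudocount and minimum tried, and the same 7 genes were named each time. Leaving out 1 library gave 5 to 7 falls and 0 rises. The falls of Cdc25b, Bub1b, Ttk and Plk4 kept their calls in all 16 alternatives, with log2 fold changes from -1.10 to -0.98, -0.96 to -0.83, -0.49 to -0.31 and -0.40 to -0.33. Aurka, which did not pass, ran from -0.11 to 0.02 when 1 library was left out (0.02 without DMSO library 1 or inhibitor library 3), and Mad2l1 from -0.11 to 0.03 (0.03 without inhibitor library 1). The log2 difference of Cdk1 to Ccnb1 ran from -0.08 to 0.01 (0.01 without inhibitor library 1); the cause was not tested. Over all genes 2067 to 3084 fell and 2078 to 3016 rose over the alternatives, and of the other mitotic genes 35 to 49 fell and 8 to 12 rose. Same-numbered libraries of the groups did not clearly pair: deviations from group means over 11644 genes correlated at 0.165, 0.050 and 0.205, though each library correlated best with its own number, a hint from the data and not the design. With a replicate block 2916 genes fell and 3016 rose, and the same 7 of the 10 fell. The edgeR fit with that block, added after the data were seen, called 7 of the 10 lower too. The pair ratios had the same differences under the block, where 3 pairs cannot give a p below 0.25. Reads were fewest for Cdc25b among the 10 genes, at 231 in 1 library, and for Plk2 among the other mitotic genes, at 26. Both kept their calls in all 16 alternatives.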
